A study of Homo sapiens with 8 samples.

Results

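PAICS, PFKP and ALDH18A1 encode enzymes of nucleotide, sugar and amino acid metabolism and were examined for RNA regions recovered with eIF4G2, an eIF4G-type initiation factor of translation that does not bind the cap-binding protein eIF4E. A gene's entries were the listed regions that lie inside one of its transcripts, overlap either end of it or cover it, with 1 entry per region and gene. The 3 genes, of 861 with a region in either list, had 11 such regions of 3210 in all. PAICS had 6 regions in the list of control cells and 3 in the list of eIF4G2-overexpressing cells, PFKP had 1 in the overexpression list only, and ALDH18A1 had 1 in the control list only. The genes were chosen by having listed regions, that is, by the region positions themselves, so their presence in a list is a description with no test.

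The proteins act in separate pathways. PAICS is a bifunctional enzyme of de novo purine synthesis that carboxylates aminoimidazole ribonucleotide and then joins the product to aspartate. PFKP is the platelet-type isoform of phosphofructokinase, which phosphorylates fructose 6-phosphate and so commits sugar to glycolysis. ALDH18A1 is the mitochondrial pyrroline-5-carboxylate synthase, which turns glutamate into the precursor of proline and ornithine, and proline is abundant in the collagen that fibroblasts secrete.

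The cells were human cardiac fibroblasts of the immortalized line IHCF, infected with a lentiviral vector for eIF4G2 or with a scramble control vector, lysed, and immunoprecipitated with an antibody to eIF4G2. The 8 libraries form 4 groups of 2 biological replicates: total RNA of control cells, total RNA of overexpressing cells, RNA bound to eIF4G2 in control cells and RNA bound to eIF4G2 in overexpressing cells. The series is titled as a study of pro-fibrotic mRNAs that depend on eIF4G2 for translation. All groups share the line, the medium and the antibody, which the labels also give for the total RNA. The data used here are the authors' 2 lists of regions, 1 per condition, with positions on GRCh38 and no read count, score or value per replicate. The depth behind a region is unknown, differences between the lists cannot be set against replicate spread, and binding of unlisted genes is not excluded by these data. The condition of each list rests on the name of its table, which also holds the name MOV10, another RNA-binding protein that no sample label mentions.

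Regions were concentrated on few chromosomes. The control list held 1224 regions, of which 1185 lay on chromosome 4, the chromosome of PAICS, and 29 on chromosome 10, the chromosome of PFKP and ALDH18A1. The overexpression list held 1986, with 491 on chromosome 4, 121 on chromosome 10 and 1339 on chromosome 18. EIF4G2 is on chromosome 11, which had 0 regions in both lists, and its overexpression could not be checked. Of 11 fibroblast, 9 cardiomyocyte and 4 endothelial marker genes, 2, 3 and 1 lie on chromosomes 4, 10 and 18 and 0 had a region in either list, so the lists do not show the cell type.

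The starts of the 3 genes are shown because no bound region lay at any of them. RefSeq windows of 300 bases on GRCh38.p14, 250 before to 50 after a transcription start, were read for all 3 genes, with 3 windows for PAICS, 4 for PFKP and 1 for ALDH18A1. A region of either list overlapped 0 of these 8 windows, and the nearest region of the same gene lay 12801 bp from a PAICS window, 32867 bp from a PFKP window and 49786 bp from the ALDH18A1 window. In each window, the 250 bases before the start are not part of the transcript that starts there. The share of all start windows with a region was not counted, so this absence does not set the 3 genes apart. The E-box CACGTG, which reads the same on both strands and was the one motif searched, occurred once in 1 of 3 PAICS windows, once in the ALDH18A1 window and in 0 of 4 PFKP windows. Of all 35116 RefSeq windows of this length, 7.26% held it, and 8.77% of 27305 genes had it in at least 1 window. Capitals mark the motif in the windows that held it, which lie at chr4:56435502-56435801 (plus strand) and chr10:95656662-95656961 (minus strand).
PAICS: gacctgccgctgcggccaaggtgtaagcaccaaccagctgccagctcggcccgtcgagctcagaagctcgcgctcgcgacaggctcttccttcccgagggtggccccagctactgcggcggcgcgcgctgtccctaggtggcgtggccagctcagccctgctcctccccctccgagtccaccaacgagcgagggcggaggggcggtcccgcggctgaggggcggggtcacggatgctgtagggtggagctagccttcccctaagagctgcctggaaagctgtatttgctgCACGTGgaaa
ALDH18A1: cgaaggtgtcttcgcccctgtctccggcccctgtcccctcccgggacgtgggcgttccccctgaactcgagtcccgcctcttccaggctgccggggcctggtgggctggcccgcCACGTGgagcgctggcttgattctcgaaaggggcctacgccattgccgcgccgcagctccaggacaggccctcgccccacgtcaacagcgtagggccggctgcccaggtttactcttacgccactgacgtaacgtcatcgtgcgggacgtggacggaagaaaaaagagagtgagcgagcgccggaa
The PAICS window shares 236 bases with the window of PPAT, which is transcribed in the other direction and encodes the amidotransferase of the first committed step of purine synthesis. The match is a description of these letters, not of a bound site.

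PAICS (ENSG00000128050) lies on the plus strand of chromosome 4, and the tables list 6 of its Ensembl transcripts. Of these, 4 start between 56435741 and 56436138 and end between 56459499 and 56461368. The transcript ENST00000512576 runs from 56436260 to 56464578 and so extends 3210 bp past the end of all others, as does the RefSeq record of PAICS, which ends at the same base. The transcript ENST00000508554 is a short internal one at 56448699 to 56451191. In the control list, the region nearest the 5′ end lay at 56449111 to 56450600 (1490 bp), within the short transcript and 12851 bp from the start of ENST00000512576. Narrow control regions followed at 56454486 to 56454700 (215 bp), 56455401 to 56455800 (400 bp) and 56456601 to 56457280 (680 bp). The widest control region, at 56459216 to 56462010 (2795 bp), crossed the 3′ ends of 4 transcripts. The last, at 56462656 to 56464805 (2150 bp), lay over ENST00000512576 alone and reached 227 bp past its end.

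In the overexpression list, PAICS had regions at 56457001 to 56457495 (495 bp), at 56457801 to 56458200 (400 bp) and at 56462011 to 56464375 (2365 bp). The first and second of these lay over 5 of the 6 transcripts, and the third over ENST00000512576 alone. Neither list had a PAICS region 5′ of 56449111. The plot of regions along PAICS shows both lists in the 3′ part of the locus.

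**Figure D1:**
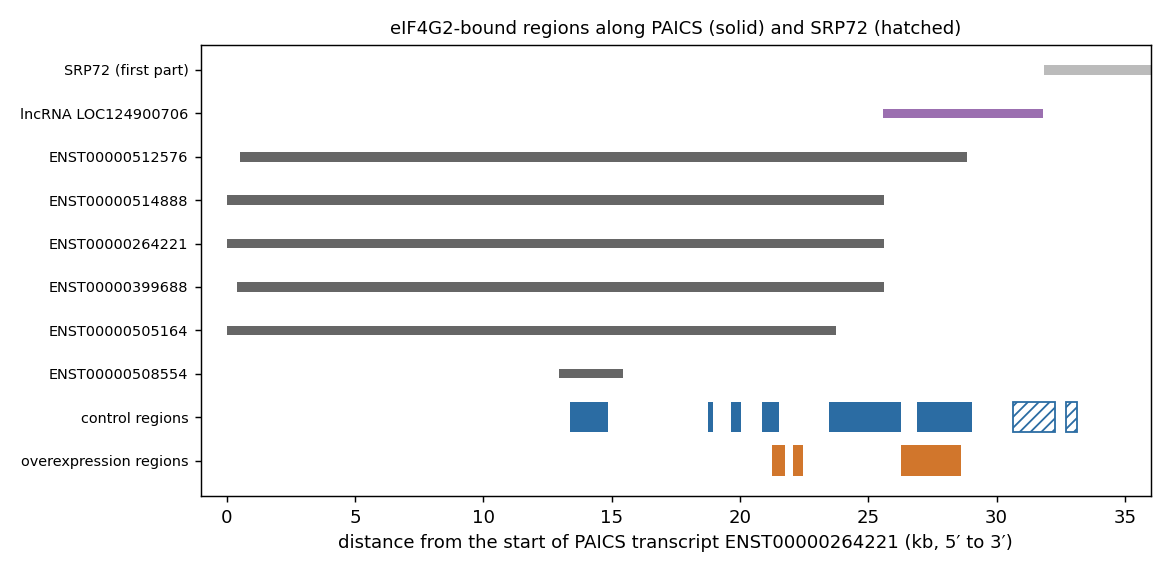
Authors' bound regions of the control list (blue) and the overexpression list (orange) along PAICS, against distance in kb from the start of transcript ENST00000264221, with the 6 listed PAICS transcripts (grey), the RefSeq lncRNA LOC124900706 (purple) and the start of SRP72; hatched regions belong to SRP72. The control list has 6 PAICS regions and the overexpression list 3, and the last region of each lies past the end of all transcripts except ENST00000512576.

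Shared bases were found for 2 of the 3 overexpression regions of PAICS and for 2 of its 6 control regions. The regions at 56456601 to 56457280 (control) and 56457001 to 56457495 (overexpression) had 280 bp in common, 41.2% of the control region and 56.6% of the overexpression region. Those at the 3′ end of ENST00000512576 had 1720 bp in common, 80.0% and 72.7%. The middle overexpression region of 400 bp lay 520 bp from the nearest control region. The widest control region ended at 56462010, and the widest overexpression region began at the next base, 56462011. The lists thus met without overlap there, and the overexpression region spanned the 645 bp that separated the last control regions. The widths of these regions (2795, 2150 and 2365 bp) and the 645 bp gap are all whole multiples of 215 bp. The PAICS widths of 1490, 680, 495 and 400 bp are not. Whether the contact reflects common steps of 215 bp was not tested.

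The covered length of PAICS, the summed width of its regions, came to 7730 bp over 6 control regions (mean width 1288 bp) and to 3260 bp over 3 overexpression regions (mean 1087 bp), a ratio of overexpression to control of 0.422. The locus was split at the extension of ENST00000512576, after the regions were seen. Up to 56461368, where the other transcripts end, control regions covered 4938 bp and overexpression regions 895 bp, a ratio of 0.181. In the 3210 bp extension they covered 2565 and 2365 bp, a ratio of 0.922. Scaled to the length that each list covers on chromosome 4, an alternative added after seeing the data, the ratios were 0.433 and 2.20, so the upstream part was longer in the control list on both scales, while the extension was longer in the overexpression list once scaled. The extension held 33.2% of the control length of PAICS and 72.5% of the overexpression length, and was itself covered to 79.9% and 73.7%. The bar plot of covered length by part of the locus shows the unscaled values.

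**Figure D2:**
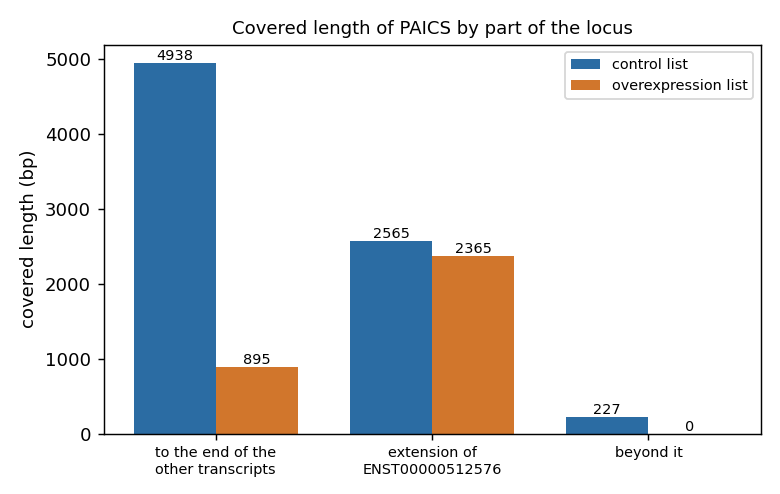
Covered length in bp of PAICS in the control list (blue) and the overexpression list (orange), in 3 parts of the locus: up to the end of the other transcripts, in the extension of ENST00000512576, and beyond it. In unscaled bp the lists differ most in the first part (4938 and 895 bp) and less in the extension (2565 and 2365 bp), where scaling to chromosome 4 gives a ratio of overexpression to control of 2.20; there are no replicates and so no error bars.

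The extension does not belong to PAICS alone in other annotation. A RefSeq lncRNA record, LOC124900706, spans 56461310 to 56467558, between the end of the shorter PAICS transcripts and the start of SRP72, and the deposited tables do not name it at these regions. It lay under 2 of the 6 control regions and 1 of the 3 overexpression regions of PAICS. Of the covered length of PAICS, 2851 control bp (36.9%) and 2365 overexpression bp (72.5%) lay over it. The regions carry no strand, and the record's strand is not in the table used here, so RNA of PAICS and of this lncRNA cannot be told apart there. Over PAICS with no other record beneath, 4 control regions (2785 bp) and 2 overexpression regions (895 bp) remained.

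Regions were common on chromosome 4, so PAICS was set beside its other genes. Of 770 protein-coding genes there, 43.1% were in the control list, 27.3% in the overexpression list and 24.0% in both. Median covered length was 2330 bp over the listed genes of the control list, where PAICS ranked 19 of 332. It was 1430 bp in the overexpression list, where PAICS ranked 33 of 210. By its widest region alone it ranked 45 of 332 and 8 of 210. The widest control region lay partly over LOC124900706 and the widest overexpression region wholly, so these ranks cannot be given to PAICS alone. Among the 185 coding genes with regions in both lists, 75.1% were longer in the control list in unscaled bp, as PAICS was, and 35.7% once scaled to the chromosome 4 length of each list, when PAICS was not. Its ratio of 0.422 lay between the lower quartile (0.350) and the median (0.560), with 66 genes lower and 118 higher. The difference between the lists in PAICS is therefore inside the spread of the 185 genes of its chromosome with regions in both lists. The 147 coding genes in the control list only, with 0 bp in the overexpression list, are not part of that spread.

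The lists also differ in total length. On chromosome 4 the control list covered 1016 kb and the overexpression list 425 kb, while mean width per region was 857 and 866 bp. PAICS took 0.761% of the control length and 0.767% of the overexpression length. Scaled to these totals its ratio was 1.01, near equal length, so the shorter overexpression length of PAICS depends on the scaling. The median scaled ratio of the 185 coding genes with regions in both lists was 1.34.

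Along ENST00000512576, the midpoints of the control regions of PAICS lay at 48.0%, 64.7%, 68.3%, 73.0%, 86.0% and 97.0% of the way from the 5′ to the 3′ end, and those of the overexpression regions at 74.1%, 76.8% and 95.1%. The last 10% of the transcript held 1 of 6 and 1 of 3. Among all entries of coding genes of chromosome 4, 42.0% of 1096 control entries and 45.4% of 476 overexpression entries lay in the last 10% or beyond. The median position was 70.7% for the control and 76.8% for the overexpression regions of PAICS, and 82.3% and 85.8% over all entries. On the longest listed transcript the PAICS median thus lay less far along in each list. It was 80.1% and 86.9% over the overlapped transcripts and 84.7% and 87.8% on the RefSeq span, control and overexpression in turn. The medians over all entries were taken on the longest listed transcript only, so they cannot be set beside these other spans. The RefSeq record starts at 56410507, before every listed PAICS transcript, which moves midpoints along it toward the 3′ end. With 6 and 3 regions, the difference on the longest listed transcript was not tested. The plot of positions shows each region.

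**Figure D3:**
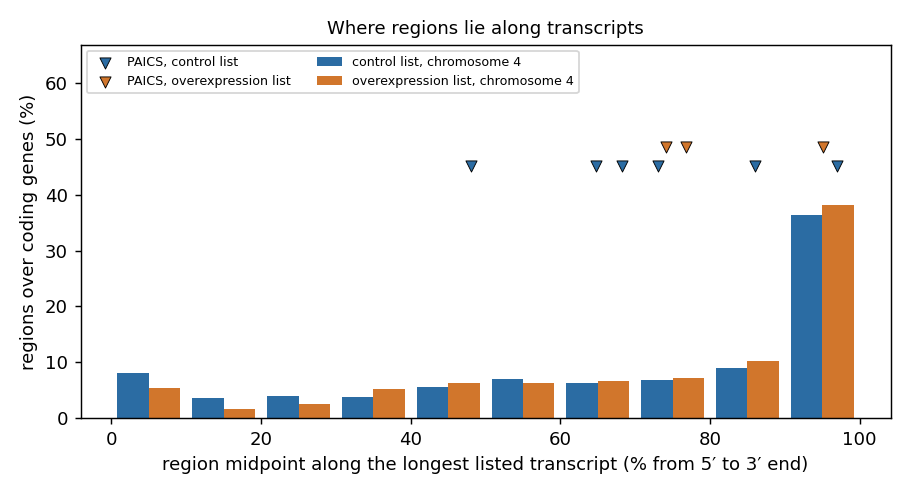
Share (%) of region entries of protein-coding genes on chromosome 4 by the midpoint of the region along the longest listed transcript, in steps of 10% from the 5′ to the 3′ end, for the control list (blue bars) and the overexpression list (orange bars), with triangles at the PAICS regions; midpoints beyond either end are not drawn but count in the total. The last step is the tallest in both lists (36.3% and 38.2%), and the PAICS regions lie from 48.0% to 97.0%.

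The split of PAICS between the last 10% of its longest transcript and the rest was read beside the same split in other genes. Each region was placed whole by its midpoint, including parts beyond the transcript or across the boundary. In the last 10% PAICS then had 2150 control and 2365 overexpression bp (ratio 1.10), and upstream of it 5580 and 895 bp (ratio 0.160). For the 184 other coding genes of chromosome 4 with regions in both lists, the summed ratios were 0.498 in the last 10% and 0.603 upstream. Only 28 genes, PAICS among them, had covered length in both parts in both lists. In 13 of the 28 (46.4%) the ratio was higher in the last 10%, with medians of 0.630 there and 0.782 upstream, and the contrast between the parts was greatest in PAICS. For PAICS the last 10% rests on 1 region in each list. Both of these regions lie wholly over LOC124900706, so their length cannot be given to PAICS alone. The comparison was chosen after the regions were seen and has no test.

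The genes on both sides of PAICS had regions in the control list only. PPAT had 2 control regions (2420 bp in all), at 56393211 to 56393640 and 56393801 to 56395790, at the 3′ end of that gene and on the side away from PAICS. SRP72, which encodes a subunit of the signal recognition particle, had 2 control regions (2060 bp), at 56466401 to 56468030 and 56468461 to 56468890. The first of these began 1822 bp past the end of ENST00000512576, crossed the start of SRP72 and had 1158 bp over LOC124900706. Of the coding genes of chromosome 4, 19.1% were in the control list only, and no test was made of these 2 neighbours.

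PFKP (ENSG00000067057) lies on the plus strand of chromosome 10 and had 1 region, at 3137526 to 3139165 (1640 bp), in the overexpression list. Only 193 bp of the region (11.8%) lay within a listed PFKP transcript, at the 3′ end of ENST00000415005 (3104724 to 3137718) and of the short ENST00000433193. The RefSeq record of PFKP ends at 3136805, 720 bp before the region, so by that annotation PFKP had 0 bp covered. PITRM1, a mitochondrial peptidase gene on the opposite strand whose 3′ end faces that of PFKP, held 1438 bp of the region (87.7%), over 31 of its transcripts. PITRM1 also had a second overexpression region (3139576 to 3141830), which brought its covered length to 3895 bp, and 0 control regions. An unnamed gene on the PFKP strand (ENSG00000278419, 3134566 to 3145166), described in the table as a readthrough transcript, contained the whole PFKP region. The second PITRM1 region also lay over this unnamed gene and over PITRM1-AS1. Without strand neither region can be given to 1 of these genes.

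Such sharing was not rare on chromosome 10. Of 734 protein-coding genes there, 9.13% had an overexpression region and 4.09% a control region, with 7.22% in the overexpression list only. Of the 67 genes in the overexpression list, 26 (38.8%) had only regions that also lay over another gene. So small a contact was less common, with PFKP and PSD as the 2 of 67 genes for which less than 25% of the covered length lay within the gene. PFKP ranked 45 of 67 by full region width (median 2050 bp). The nearest control region on the chromosome lay 10506865 bp away.

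ALDH18A1 (ENSG00000059573) lies on the minus strand of chromosome 10 and had a 615 bp control region, its 1 region, at 95606261 to 95606875. The whole region lay inside the gene, over its long transcripts ENST00000371224 and ENST00000371221, and over no other gene of the table or of RefSeq. It ended 320 bp before the 3′ end of ENST00000371224, with its midpoint at 98.8% of the 50771 bp span. Exon boundaries were not used here, so whether it lies in the untranslated part is not given. A place near the 3′ end was common among control entries of coding genes on this chromosome. Of 33 entries, 26 (78.8%) lay in the last 10% or beyond, and the median was 98.3%. By covered length ALDH18A1 ranked 29 of 30 listed genes (median 1230 bp), and 27 of the 30 had 1 region. Of the coding genes of chromosome 10, 2.18% were in the control list only. The nearest overexpression region lay 366745 bp away, and TCTN3, a gene next to ALDH18A1 that encodes a protein of the ciliary base, had 0 regions. The maps of the 3′ ends of PFKP and ALDH18A1 set a region mostly outside its gene beside one fully inside.

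**Figure D4:**
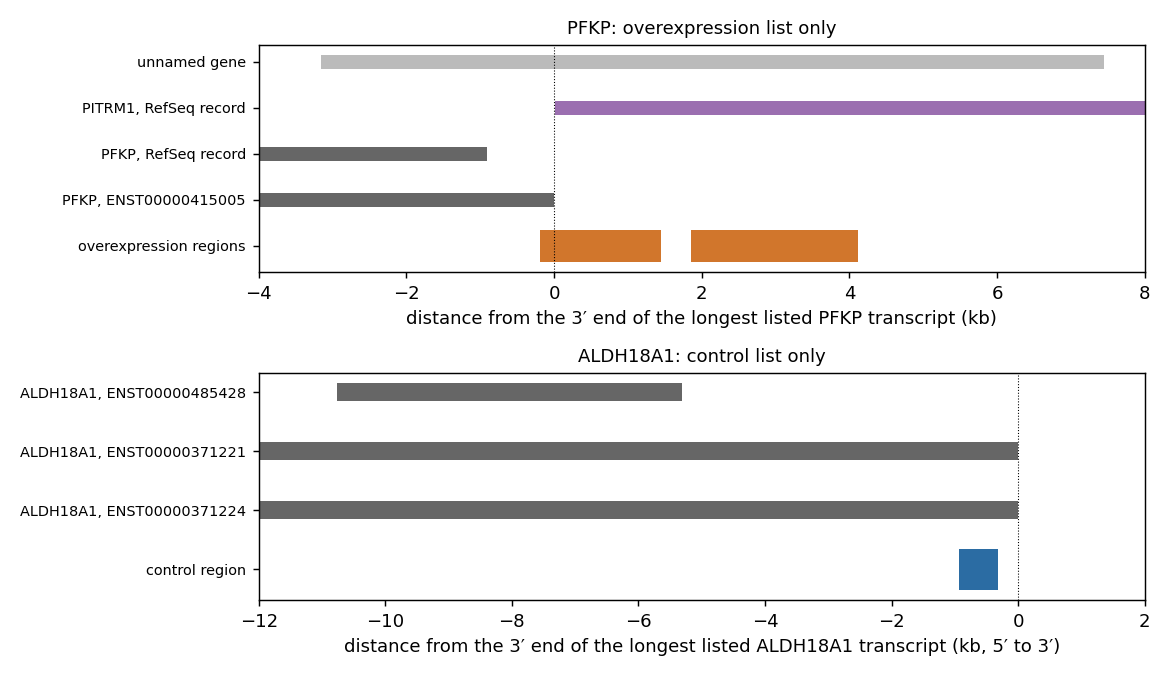
Authors' bound regions at the 3′ ends of PFKP (top, overexpression list in orange) and ALDH18A1 (bottom, control list in blue), against distance in kb from the 3′ end of the longest listed transcript (dotted line), with transcripts and RefSeq records as thin bars. The PFKP region has 193 of its 1640 bp before the dotted line and lies mostly over PITRM1, while the ALDH18A1 region lies wholly inside the gene. The other orange region (3139576 to 3141830) is the second one over PITRM1 and overlaps no listed PFKP transcript.

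Few other genes of these pathways could be seen. Of 13 genes of de novo purine synthesis, PAICS and PPAT lie on chromosomes 4, 10 and 18; both had control regions and PAICS alone an overexpression region. Of 31 genes of glycolysis and its regulation, 6 lie on these chromosomes, and PFKP was the 1 with a region. PGM2 (phosphoglucomutase), on chromosome 4, and HK1, HKDC1 (hexokinases), PFKFB3 (which makes the activator of phosphofructokinase) and PGAM1 (phosphoglycerate mutase), on chromosome 10, had 0 regions. Of 15 genes of proline and glutamate metabolism, 4 lie on these chromosomes, and ALDH18A1 was the 1 with a region. GLUD1 (glutamate dehydrogenase), GOT1 (aspartate aminotransferase) and OAT (ornithine aminotransferase), on chromosome 10, had 0. Since 4.09% and 9.13% of coding genes of chromosome 10 were listed, absence there does not set a gene apart. Of chromosome 4 coding genes, 43.1% had a control region and 27.3% an overexpression region. Having or lacking a region there therefore does not set PAICS, PPAT or PGM2 apart either.

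The genes most like each of the 3 in covered length were found on the same chromosome as the smallest sum, over the 2 lists, of differences in log2 (bp + 100). For PAICS they were MYL5, a myosin light chain gene (6680 bp control, 3305 bp overexpression; distance 0.23), the adaptor gene SH3D19 (9230 and 3200 bp; 0.28) and the cyclin gene CCNA2 (8400 and 3675 bp; 0.29), out of 184 candidates. Each of the 3 had 1 control region over several genes, and MYL5 also 1 such overexpression region. BORCS7, LCOR and TUBGCP2 equalled PFKP, with 1640 overexpression bp and 0 control bp, through 2, 3 and 3 regions rather than 1, and both regions of BORCS7 lay over several genes. The 1640 bp is the full region width, of which 193 bp lay within PFKP. Covered lengths of the listed coding genes of chromosome 10 were whole multiples of 205 bp, so exact ties can arise among them. BAG3, a co-chaperone gene, was nearest to ALDH18A1 (820 bp control, 0 bp overexpression; 0.36), followed by DNAJC9 and FAM149B1, which both had 1025 bp (0.65) in regions over several genes. Likeness over 2 lists is a weak measure, and the plot of covered length shows many genes near each of them.

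**Figure D5:**
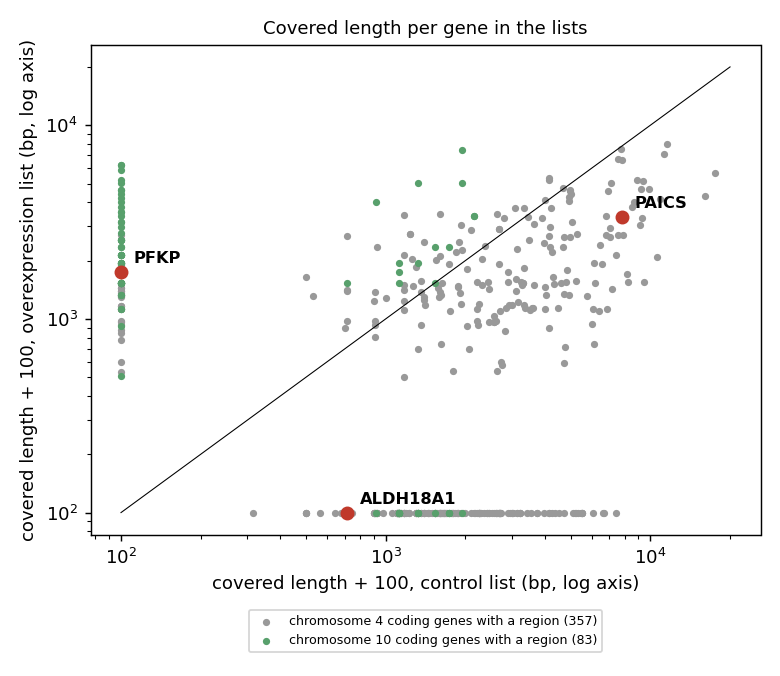
Covered length + 100 in bp in the control list (x, log axis) and the overexpression list (y, log axis) for protein-coding genes with a region on chromosome 4 (grey) and chromosome 10 (green); points on the left or lower edge have 0 bp in that list and the line marks equal length. PAICS (7730 and 3260 bp) lies below the line among other genes of chromosome 4, PFKP on the left edge (1640 bp) and ALDH18A1 on the lower edge (615 bp).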

How the data were processed

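RIP-seq libraries of eIF4G2-bound and total RNA from IHCF cells were made by the authors; per the submitters' processing notes, HISAT2 2.1.0, Trimmomatic 0.36 and bcl2fastq 2.19.0 were used, with the GRCh38 (hg38) build. How regions were called, against what background and over which replicates is not given in the sources used here. Deposited by the authors, the values are 1-based positions, widths and distances in bp, per the file headers; widths were multiples of 5 bp on chromosomes 4 and 10. Gene names were updated through RefSeq (GRCh38.p14) records of the same chromosome, and 726 of 732 named genes matched, the 3 members among them. Overlap meant at least 1 bp. Shares of genes have no replicate error. Named genes were the members, genes sharing a region or next to one, genes of 3 pathway lists and the 3 nearest genes by covered length. Members and lists were chosen with earlier results of these data known. Tests planned for counts per replicate could not be made, since no column holds per-sample values. Overlap, merging and position code was tested on simulated data. Versions were scipy 1.17.1, numpy 2.4.6, pandas 2.3.3, matplotlib 3.10.9 and Python 3.11.15.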

Additional observations from a re-analysis of the deposited data

How the results depend on the processing

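No paired analysis was possible because each list pools its condition and holds no value per replicate; leaving out a replicate was not run for the same reason. Merging regions up to 1000 bp apart left 3 PAICS regions in the control list. PAICS covered 7503 bp (control) within the gene or its RefSeq record, 2795 and 2365 bp by the widest region, and 2785 and 895 bp in regions over no other gene of the table or RefSeq, control and overexpression in turn. With an overlap of at least 50% of both regions, 1 PAICS region of each list was shared. The PAICS ratio was 0.346 scaled to whole lists, 0.434 within the gene, 0.846 by the widest region and 0.321 in regions over no other gene or RefSeq record. Scaled to chromosome 4 it was 1.01, near equal length. The PFKP region fell to 193 bp within the gene, 0 bp within its RefSeq record, and 0 regions and 0 bp over no other gene, with or without RefSeq; the glycolysis list then had 0 genes in the overexpression list. Median positions of PAICS were 80.1% and 86.9% over the overlapped transcripts and 84.7% and 87.8% on the RefSeq span, against 70.7% and 76.8%; the PFKP midpoint moved from 102% to 108% over its transcripts. In all, 25 values moved, 1 was labelled reversed (the ratio of 1.01) and 51 did not move beyond their margin (1.5 times for a count, the 95% Wilson interval for a share, no change otherwise). The settings with RefSeq records, the chromosome 4 scaling and the pathway counts were added after the data were seen. Depth could not be weighed, as the lists hold no counts.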

Other observations

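The regions of PAICS in the lists met end to end at 1 place, and such contacts were counted over chromosome 4. Of 491 overexpression regions there, 16 began at the base after a control region ended, and 9 of 1185 control regions began at the base after an overexpression region ended. On chromosome 10 there were 0 of either kind. On chromosome 4, 3 regions had identical ends in both lists, 47 overexpression regions began at the start of a control region and 36 ended at the end of one. The PAICS regions that met have widths in whole multiples of 215 bp, while the PAICS regions of 1490, 680, 495 and 400 bp do not. How far common steps of this kind account for the counts was not tested.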
